A study of Homo sapiens with 22 samples.

Results

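RAD21 peaks of clone A2 at 4 h and at 24 h of dTAGV-1 were set against each other directly. Each time had 1 peak list from 1 library, with 25763 peaks at 4 h and 28589 at 24 h, of 341123 peaks in the 12 lists of the series. Peaks were placed in 3 classes by overlap of at least 1 bp: in both lists, only at 4 h, and only at 24 h. The peaks in both lists numbered 21568 when counted in the 4 h list (83.7% of it) and 21459 when counted in the 24 h list (75.1%). Peaks only at 4 h numbered 4195, or 16.3% (95% Wilson interval 15.8 to 16.7) of their list, and peaks only at 24 h numbered 7130, or 24.9% (24.4 to 25.4). Of the 24 h peaks, 108 overlapped more than 1 peak of the other list, which is why the counts of the shared class differ.

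The cells were hTERT RPE-1, a human line from the retinal pigment epithelium made immortal with telomerase, and they were cycling without synchronisation. Clone A2 carries the genotype mCherry-P2A-FKBP12(F36V)-NIPBL: NIPBL is fused to a degron that the small molecule dTAGV-1 marks for degradation, and the same tag is present in the control of the clone, which received DMSO for 24 h. RAD21 was precipitated from formaldehyde-fixed chromatin with about 10% NIH/3T3 mouse chromatin added. Clone D7, used here for comparison, carries mGreenLantern in place of mCherry and was sampled in DMSO and after 4 h and 24 h of dTAGV-1, and STAG1, STAG2 and PDS5A were precipitated in the same clone (PDS5A in DMSO, the others with no treatment named in their labels). CTCF and WAPL came from wild-type cells. Each clone is a single line and each group a single library, so the differences have no replicate check. Intervals are 95% Wilson intervals for shares and 95% Newcombe intervals for differences of shares, and both cover counting error only. NIPBL protein was not measured in these files, and peak lists hold no expression values against which the labelled cell type could be checked.

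Cohesin is a ring-shaped complex that folds chromatin into loops, and RAD21 is the subunit that closes the ring. NIPBL activates the motor of cohesin and is required for it to extrude loops, while CTCF, a zinc-finger protein that reads a long DNA motif, halts moving cohesin and holds it at fixed sites. STAG1 and STAG2 are alternative cohesin subunits, and PDS5A and WAPL help to release cohesin from DNA. RAD21 peaks therefore mark both sites where cohesin is held at CTCF and sites such as active gene starts where it is found without CTCF.

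Sequences at gene starts are shown for peaks of both kinds, since the classes differed at gene starts and in their overlap with CTCF. Each is the 250 bases before an annotated start from RefSeq (GRCh38.p14), 5′ to 3′ on the strand of the gene, with matches to the CTCF core letters in capitals. The letters searched, on both strands, were CCA, any 2 bases, AG, any 2 bases and GGC. These letters occurred in 2.52% (2.32 to 2.74) of the 22132 promoter windows of protein-coding genes, 250 bases before to 50 after the start, and in 5.30% of the 5268 windows that overlapped a CTCF peak. The first 3 carried a peak only at 24 h that overlapped no CTCF peak. CRACD, which encodes an inhibitor of actin filament capping, is shown at chr4:56048848-56049097 (+), DDX60L, an interferon-induced helicase gene, at chr4:168480493-168480742 (−), and CBLB, a ubiquitin ligase gene, at chr3:105869013-105869262 (−).
CRACD: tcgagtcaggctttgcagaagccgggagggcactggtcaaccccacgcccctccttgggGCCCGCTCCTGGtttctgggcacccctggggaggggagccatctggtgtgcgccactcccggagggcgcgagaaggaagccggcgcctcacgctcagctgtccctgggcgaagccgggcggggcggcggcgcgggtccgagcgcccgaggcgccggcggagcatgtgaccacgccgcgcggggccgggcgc
DDX60L: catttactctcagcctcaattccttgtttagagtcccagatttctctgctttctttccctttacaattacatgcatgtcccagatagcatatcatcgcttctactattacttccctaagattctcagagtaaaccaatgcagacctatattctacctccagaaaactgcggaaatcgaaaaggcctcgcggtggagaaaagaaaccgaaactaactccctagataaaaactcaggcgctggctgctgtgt
CBLB: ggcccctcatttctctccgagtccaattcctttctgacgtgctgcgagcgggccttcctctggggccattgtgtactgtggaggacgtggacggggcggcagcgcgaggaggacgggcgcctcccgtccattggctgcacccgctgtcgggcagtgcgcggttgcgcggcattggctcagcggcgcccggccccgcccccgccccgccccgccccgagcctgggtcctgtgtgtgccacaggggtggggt
The next 2 carried a peak only at 24 h that overlapped CTCF. RAP2C, a small GTPase gene, is shown at chrX:132219448-132219697 (−), and MREG, whose product melanoregulin takes part in melanosome transport, at chr2:216034097-216034346 (−).
RAP2C: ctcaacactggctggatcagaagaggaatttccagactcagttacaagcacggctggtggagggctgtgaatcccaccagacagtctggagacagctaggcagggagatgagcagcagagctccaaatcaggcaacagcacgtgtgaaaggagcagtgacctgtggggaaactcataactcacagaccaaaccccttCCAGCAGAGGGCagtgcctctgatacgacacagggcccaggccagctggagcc
MREG: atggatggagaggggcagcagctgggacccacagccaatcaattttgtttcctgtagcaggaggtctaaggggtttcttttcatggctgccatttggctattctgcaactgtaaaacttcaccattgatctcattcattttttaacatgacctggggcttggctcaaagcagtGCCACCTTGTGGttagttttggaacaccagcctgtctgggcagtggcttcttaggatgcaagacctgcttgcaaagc
The last 2 carried a peak only at 4 h that overlapped CTCF. ANKRD6, a gene of the Wnt pathway, is shown at chr6:89432902-89433151 (+), and TLR6, which encodes a Toll-like receptor, at chr4:38856818-38857067 (−).
ANKRD6: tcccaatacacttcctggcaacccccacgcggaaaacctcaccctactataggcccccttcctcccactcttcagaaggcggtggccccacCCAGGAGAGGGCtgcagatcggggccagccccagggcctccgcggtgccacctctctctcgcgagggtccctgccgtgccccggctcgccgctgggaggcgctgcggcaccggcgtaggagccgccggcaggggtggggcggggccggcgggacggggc
TLR6: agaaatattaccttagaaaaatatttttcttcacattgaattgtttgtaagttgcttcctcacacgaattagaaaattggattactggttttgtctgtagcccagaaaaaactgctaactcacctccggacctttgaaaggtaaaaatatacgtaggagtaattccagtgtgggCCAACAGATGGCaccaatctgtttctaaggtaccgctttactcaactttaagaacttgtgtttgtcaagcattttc
They had the highest fold enrichment among gene starts of their kind whose promoter window overlapped the peak, those with CTCF among the starts that held the letters, and they were chosen after the values were seen. The match lay 7 bp from the RAD21 summit at RAP2C, 2 bp from it at MREG and 9 bp from it at TLR6. At ANKRD6 it lay 82 bp away and at CRACD 180 bp away. No CTCF peak was called at CRACD although the letters occur there. The summit of the CBLB peak lay 470 bp from the start shown and 17 bp from another annotated start of the gene. All 7 starts also had a RAD21 peak in the DMSO list of clone A2.

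The libraries differed in ways that bear on every count that follows. The lists give no read totals. The background pileup, the lowest local background that the fold enrichment and the −log10 p of the peaks allow, came to 3.16 in the 4 h library of clone A2, 2.83 in its 24 h library and 1.87 in its DMSO library. The narrowest peak was 262 bp at 4 h and 344 bp at 24 h, so equal pileups would not mean equal numbers of reads. Strong CTCF sites, meaning the 14785 that ranked by fold in the upper 25% of the CTCF list, served as a common set of places in which to look for RAD21. Where no protein-coding gene began within the surrounding 1 Mb, 3.53% (1.87 to 6.57) of 255 such sites lacked a 4 h peak and 15.3% (11.4 to 20.2) lacked a 24 h peak. Where more than 20 genes began, 23.7% (22.2 to 25.4) of 2761 sites lacked a 4 h peak and 19.2% (17.8 to 20.7) a 24 h peak. The 4 h list was thus the more complete of the pair in gene-poor surroundings and the less complete in gene-rich ones. The same measure also differed between untreated libraries: without genes nearby 2.75% of sites lacked a peak in the DMSO library of clone A2 and 9.02% in that of clone D7. For clone D7 at 4 h the shares were 10.98% without genes nearby and 6.16% with more than 20, and for clone D7 at 24 h they were 5.10% and 16.8%. The part of these library differences in the classes was not tested.

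**Figure D1:**
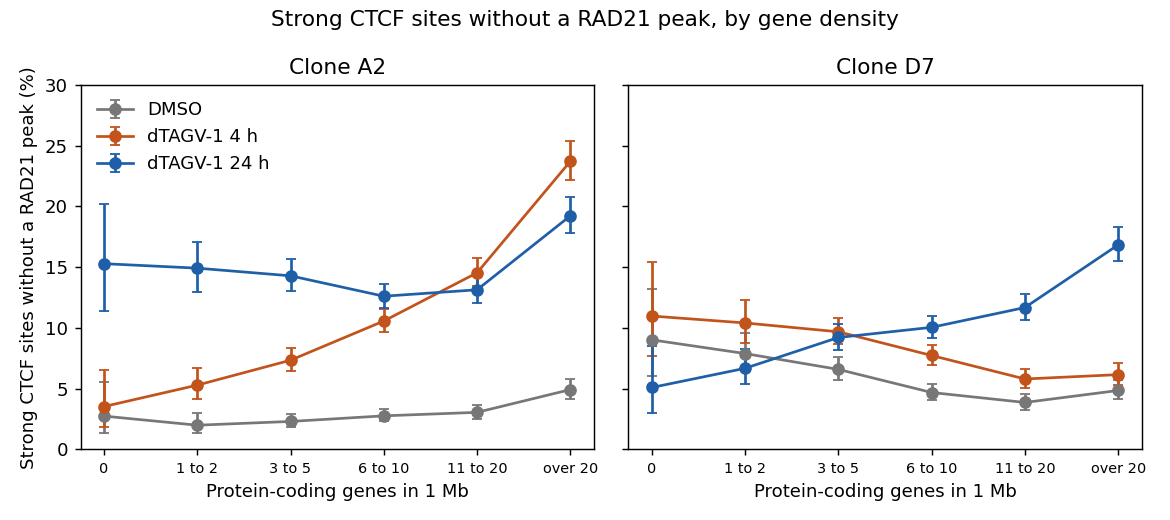
Strong CTCF sites without an overlapping RAD21 peak, in percent of the sites (y axis), by the number of protein-coding genes that begin in the surrounding 1 Mb (x axis), for the DMSO, 4 h and 24 h libraries of clone A2 (left) and clone D7 (right); points are shares and bars 95% Wilson intervals. In clone A2 the 4 h share goes from 3.53% to 23.7%, while the 24 h share lies between 12.6% and 19.2%.

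Peaks of the classes differed in strength within their own list. Peaks only at 4 h had a median fold enrichment of 8.16 (quartiles 5.52 and 15.4), against 13.7 for the shared peaks of that list. Peaks only at 24 h had a median of 4.97 (3.85 and 6.30), against 15.4 for the shared peaks of the 24 h list. Fold enrichment, q and p are the authors' values for a peak. They rank peaks within a list, and folds of 1 site in several lists are given side by side without comparing their size. In the weakest decile of the 24 h list 80.5% (79.0 to 81.9) of the peaks had no 4 h counterpart, and in each of its 2 strongest deciles 0 of 2859 peaks were without one, which leaves an upper Wilson bound of 0.134%. The 4 h list declined far less, from 28.9% (27.2 to 30.7) in its weakest decile to 6.33% (5.45 to 7.33) in its strongest. The upper decile thus held 163 one-time peaks in the 4 h list and 0 in the 24 h list, and the weakest decile held 745 and 2301. Of the peaks only at 24 h, 4039 of the 7130 reached a −log10 q of 10. Among peaks at strong CTCF sites, a restriction chosen after seeing the data, the order of the classes turned, with 894 only at 4 h and 654 only at 24 h.

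**Figure D2:**
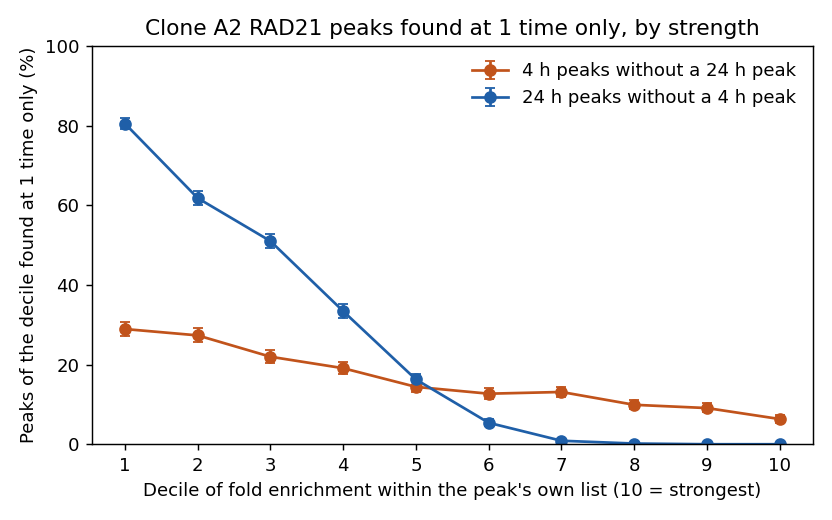
Share of peaks found at 1 time only, in percent of the decile (y axis), by decile of fold enrichment within the peak's own list (x axis, 10 is the strongest), for the 4 h and the 24 h list of clone A2; bars are 95% Wilson intervals. The 24 h curve drops from 80.5% to 0, while the 4 h curve is still at 6.33% in decile 10.

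Sites shared by both times were close to identical in position. Among 21457 pairs of peaks that were each other's best match, summits lay a median of 14 bp apart and 96.3% lay within 200 bp. The 24 h peak was the wider of the pair in 83.0% of cases, with medians of 608 bp at 4 h and 736 bp at 24 h, in the same direction as the narrowest peaks of the lists. The order of strength was similar but not the same: Spearman's rho of the folds across the pairs was 0.74, as a description of 2 libraries whose sites share the antibody and the clone. Of the 2146 pairs in the upper 10% at 4 h, 1278, or 59.6%, were also in the upper 10% at 24 h. Pairs at gene starts ranked higher at 24 h than at 4 h in 68.8% of 1167 cases, and pairs without CTCF in 74.2% of 271 cases, against 55.2% of pairs with CTCF. This share also varied with gene density: it was 52.4% where no gene began within the surrounding 1 Mb and 59.8% where more than 20 did. The median percentile at 4 h was 24.0 for pairs at gene starts and 2.87 for pairs without CTCF, against 50.6 with CTCF. The part of these starting ranks in the shares was not tested. The median change to 24 h was 5.04, 2.95 and 1.71 percentile points, in the same order.

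CTCF, which the class rule did not use, was present at nearly all sites of the 4 h list and at fewer of the sites found only at 24 h. The CTCF list of wild-type cells overlapped 98.7% (98.55 to 98.85) of the shared peaks in the 4 h list and 93.6% (92.8 to 94.3) of the peaks only at 4 h. Of the peaks only at 24 h it overlapped 66.5% (65.4 to 67.6). The difference between the peaks only at 24 h and those only at 4 h was −27.1 points (−28.4 to −25.7). The CTCF peaks under them also differed in strength: their median percentile by fold within the CTCF list was 78.7 for shared sites of the 4 h list, 63.6 for sites only at 4 h and 45.3 for sites only at 24 h. In the 2 weakest deciles of the 24 h list CTCF overlapped 48.8% and 62.8% of the peaks without a 4 h counterpart, against 88.2% and 93.5% of the shared ones. From the fifth to the eighth decile, the last that held one-time peaks, the shares were 92.3% or more in both classes, so most peaks without CTCF were weak ones. When both lists kept only peaks with a −log10 q of 10 or more, the difference was −14.5 points (−15.6 to −13.5).

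The DMSO library of clone A2 held most sites of both classes. It contained 98.1% of the shared peaks, 87.3% (86.2 to 88.3) of the peaks only at 4 h and 62.3% (61.1 to 63.4) of those only at 24 h. By CTCF and DMSO together, 84.6% of the peaks only at 4 h were CTCF sites already occupied in DMSO, 8.94% CTCF sites absent from the DMSO list, 2.65% CTCF-free sites of the DMSO list and 3.77% CTCF-free and absent from it. For the peaks only at 24 h the same shares were 47.3%, 19.2%, 14.9% and 18.6%. Sites without CTCF therefore made up 269 of 4195 peaks in one class and 2388 of 7130 in the other.

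**Figure D3:**
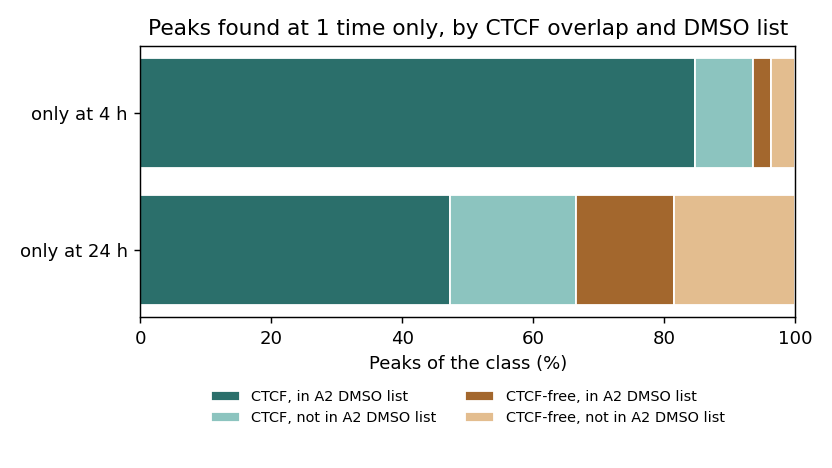
Make-up of the peaks found only at 4 h and only at 24 h in clone A2, in percent of the class (x axis), by overlap with the wild-type CTCF list and with the DMSO RAD21 list of the clone. CTCF sites of the DMSO list make up 84.6% of the 4 h bar and 47.3% of the 24 h bar; no error bars are drawn.

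Seen from the DMSO list, 53.04% of its 39713 peaks were present at both times, 9.15% (8.87 to 9.43) at 4 h and not at 24 h, 10.98% (10.7 to 11.3) at 24 h and not at 4 h, and 26.8% at neither. At DMSO peaks with CTCF the 2 one-time groups were of nearly the same size, 10.4% (10.0 to 10.7) at 4 h and not at 24 h and 9.83% (9.52 to 10.2) at 24 h and not at 4 h. At CTCF-free DMSO peaks they were not: 1.78% (1.47 to 2.17) of 5604 peaks were present at 4 h and not at 24 h, and 17.95% (16.97 to 18.98) at 24 h and not at 4 h. Most CTCF-free DMSO peaks, 76.9% (75.7 to 77.9), were at neither time. Among CTCF-free DMSO peaks within 1 kb of a gene start 14.2% (12.5 to 16.2) were present at 24 h and not at 4 h, and among those farther away 19.2% (18.0 to 20.5). CTCF-free sites found at 24 h and not at 4 h thus lay both at gene starts and away from them, with the larger share away from them.

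The other libraries, which the class rule did not use, also held the classes unequally. Of the peaks only at 4 h, the DMSO list of clone D7 held 42.3%, its 4 h list 28.9% (27.6 to 30.3) and its 24 h list 65.8% (64.4 to 67.2). Of the peaks only at 24 h, the same lists held 62.9%, 63.6% (62.4 to 64.7) and 48.3% (47.2 to 49.5). The peaks of each time were thus found more often at the opposite time in clone D7: of the peaks only at 4 h, 46.1% were in the clone D7 list at 24 h and not at 4 h, and 9.15% were in it at 4 h and not at 24 h. For the peaks only at 24 h these shares were 7.49% and 22.7%. Both classes lay below the shared peaks of the 4 h list, of which the clone D7 lists held 95.6% (DMSO), 94.5% (4 h) and 93.0% (24 h). Shared peaks were also the stronger ones of their list. The shares given here for clone D7, STAG1, STAG2 and PDS5A were not matched on strength. STAG1 overlapped 15.4% of the peaks only at 4 h and 40.6% of those only at 24 h, a difference of 25.1 points (23.5 to 26.7). STAG2 went the other way, with 53.8% and 17.3%, a difference of −36.5 points (−38.2 to −34.7). PDS5A overlapped 10.6% and 30.7%, a difference of 20.1 points (18.6 to 21.5). WAPL, whose list is short, overlapped 0.930% and 0.126%, against 12.1% of the shared peaks of the 24 h list. Of the shared peaks of the 4 h list, STAG1 overlapped 82.0%, STAG2 73.2% and PDS5A 66.2%, so both one-time classes lay below the shared peaks in all 3 lists. The STAG1, STAG2 and PDS5A lists come from clone D7, and none of them is labelled with dTAGV-1. These 3 libraries also differed in their cover of strong CTCF sites by gene density. With no gene and with more than 20 genes beginning in the surrounding 1 Mb, 21.96% and 13.2% of the sites lacked a STAG1 peak, 57.6% and 9.09% a PDS5A peak, and 9.80% and 38.1% a STAG2 peak. STAG1 and PDS5A thus missed more sites in gene-poor surroundings and STAG2 in gene-rich ones, and the part of this in the overlap differences was not tested.

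**Figure D4:**
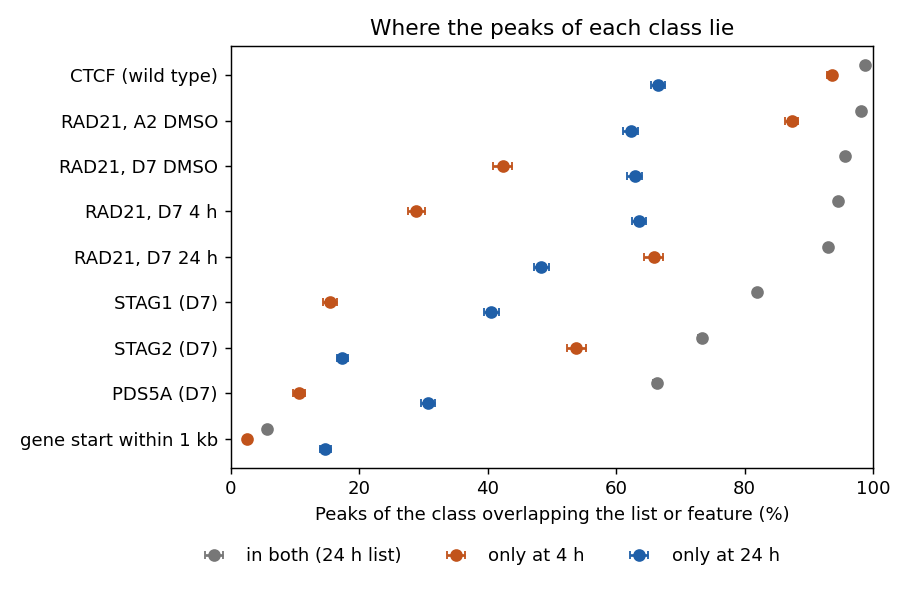
Share of peaks overlapping each other list, or with a summit within 1 kb of a gene start (x axis, percent), for the shared peaks of the 24 h list, the peaks only at 4 h and the peaks only at 24 h in clone A2; bars are 95% Wilson intervals. Peaks only at 4 h lie to the right for CTCF, the DMSO list of clone A2, RAD21 in clone D7 at 24 h and STAG2, and peaks only at 24 h for the other 4 lists and gene starts.

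The strongest peaks found only at 4 h all lay at CTCF sites of the control cells. The 163 of them in the upper 10% of the 4 h list overlapped a CTCF peak and lay in the DMSO list of clone A2 in every case, as well as in the clone D7 list at 24 h, and 161 overlapped STAG2. The 2414 shared peaks of the same decile were nearly the same in these lists. Of those, 100% overlapped CTCF and 100% lay in the DMSO list of clone A2. The clone D7 list at 24 h held 99.9% of them and the STAG2 list 99.6%. Of the 163, only 90, or 55.2% (47.55 to 62.6), lay in the DMSO list of clone D7, 84, or 51.5%, in its 4 h list, 36, or 22.1%, in the STAG1 list and 4, or 2.45%, in the PDS5A list. The 2414 shared peaks of the same decile lay in these 4 lists in 99.6%, 99.7%, 97.9% and 74.5% of cases. Of all peaks only at 4 h, the same 4 lists held 42.3%, 28.9%, 15.4% and 10.6%. The strong sites were thus found more often in the clone D7 DMSO and 4 h lists than the class as a whole, and less often in the PDS5A list. Part of them had no called peak in the DMSO list of clone D7, while all 163 lay in that of clone A2. The 163 peaks lay in gene-poor surroundings, with a median of 3 genes beginning in 1 Mb against 6 for the shared peaks of the decile. Of the upper decile, 16.8% (11.04 to 24.8) of 113 peaks with no gene beginning within the surrounding 1 Mb were only at 4 h, and 0.476% (0.0841 to 2.65) of 210 peaks with more than 20.

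Gene density separated the classes over the whole lists as well. With no gene beginning in the surrounding 1 Mb 31.7% (29.0 to 34.6) of 1078 peaks of the 4 h list had no 24 h counterpart, and with more than 20 genes 6.23% (5.40 to 7.18) of 2842. The 24 h list varied less: the share was 26.4% (23.8 to 29.3) of 999 peaks with no gene, 29.1% with 1 to 2 genes, 27.8% with 3 to 5 and 18.6% of 3254 with more than 20. By chromosome the share of 4 h peaks found only at 4 h ran from 6.51% on chromosome 22 to 25.7% on chromosome 4, and that of 24 h peaks found only at 24 h from 18.5% on chromosome 19 to 28.4% on chromosome 10. The local background under the peaks rose along the same scale, from a median of 3.16 to 7.47 at 4 h and from 2.83 to 8.95 at 24 h, where the pileup could be solved. The part of that background in the classes was not tested. Weighted within bins of gene density, the difference in CTCF overlap between the classes was −27.7 points, against −27.1 without bins.

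**Figure D5:**
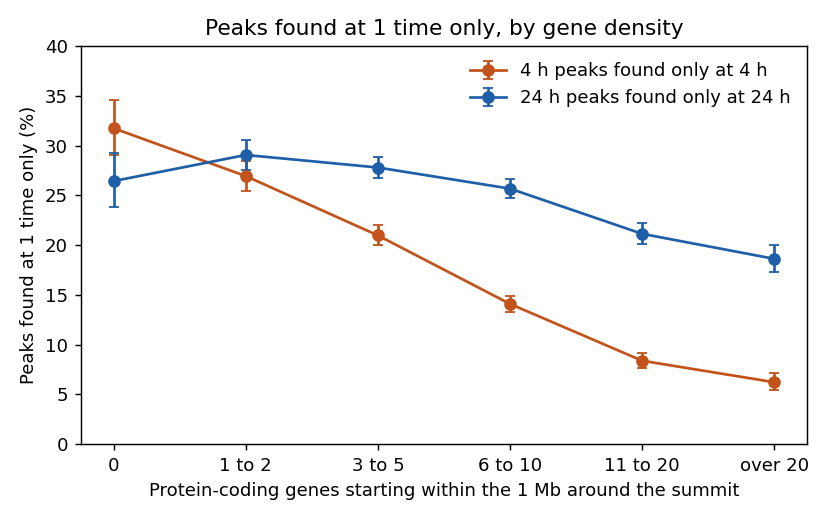
Share of clone A2 RAD21 peaks found at 1 time only, in percent of the peaks of that list (y axis), by the number of protein-coding genes that begin in the 1 Mb around the summit (x axis); bars are 95% Wilson intervals. The 4 h share falls from 31.7% to 6.23%, while the 24 h share is 26.4% in the first bin, highest at 29.1% in the next and lowest at 18.6% in the last.

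Gene starts were found more often under peaks only at 24 h. A summit lay within 1 kb of a start of a protein-coding gene in 14.7% (13.9 to 15.6) of the peaks only at 24 h, in 2.59% (2.14 to 3.13) of those only at 4 h and in 5.79% (5.48 to 6.12) of the shared peaks of the 4 h list. The difference between the one-time classes was 12.1 points (11.1 to 13.1), and 11.2 points when weighted within bins of gene density. Of the 998 gene-start peaks only at 24 h, 71.5% overlapped CTCF, 89.7% lay in the DMSO list of clone A2, 84.8% overlapped STAG1 and 68.6% PDS5A, and 8.42% overlapped STAG2. Of the 103 gene-start peaks only at 4 h, the same lists held 76.7%, 92.2%, 68.0%, 59.2% and 19.4%, so gene-start peaks of both classes overlapped STAG1 more often than STAG2. Most of the 998 were thus sites with RAD21 in the control cells, and most had CTCF. Inside a protein-coding gene lay 50.5% (49.0 to 52.1) of the peaks only at 4 h and 50.4% (49.2 to 51.5) of those only at 24 h, a difference of −0.158 points (−2.06 to 1.75), against 42.9% (42.2 to 43.5) of the shared peaks. The promoter windows under a peak only at 24 h had a median GC content of 68.3%, those under a peak only at 4 h 66.8% and those under a peak at both times 66.7%. Among windows with a CTCF peak the medians were 68.7%, 61.5% and 66.7%, the second over 41 genes. With or without CTCF, the median over all windows was 62.3%. For windows with a peak in the DMSO list of clone A2 and at neither time it was 68.3%. The CTCF core letters were present in 5.31% of the windows with CTCF and a peak only at 24 h, 18.2% (9.51 to 32.0) of those with a peak only at 4 h and 9.04% of those with a peak at both times.

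Counted by gene, 966 of 15812 protein-coding genes, or 6.11%, had a summit within 1 kb of a start at 24 h only, 86, or 0.544%, at 4 h only, and 1211 at both times. Counted over gene bodies with 10 kb on either side, 1043 genes had a peak at 24 h only and 588 at 4 h only, so the imbalance was smaller there. The gene groups were read against these shares. Of the list for YAP, TGF-beta and AP-1, signals that act on adhesion and matrix genes, 4 of 22 had a start peak at 24 h only, 1 at 4 h only and 3 at both times. SMAD3, a transducer of TGF-beta signals, had a fold enrichment of 3.74 at 24 h, SMAD7, its inhibitor, 2.56, and LATS2, a kinase that restrains YAP, 2.52. TGFBR1, the type I receptor, had 2.5 and was named after its value was seen. FN1, the fibronectin gene, had 3.67 at 4 h only. All 5 lie in the weakest decile of their list. Of the genes of retinal pigment epithelium identity, 2 of 15 had a start peak at 24 h only: TJP1, a tight-junction scaffold, with a fold of 4.50 and MITF, a regulator of pigment cells, with 2.17.

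Counts in the other groups, like those above, were mostly too small to read against the background. Ribosomal protein genes had 3 of 63 members at 24 h only, RPL26 with a fold of 3.90, RPL27A with 3.40 and RPS27L, a paralogue picked up by its name, with 2.25, and 0 at 4 h only. Zinc finger genes of chromosome 19, a family in tandem copies many of whose members encode transcriptional repressors, had 10 of 210 at 24 h only, or 4.76%, and 0 at 4 h only. The strongest were ZNF460 with a fold of 6.53, ZNF442 with 6.21, ZNF765 with 5.63 and ZNF799 with 5.61. Whether reads of near-identical copies were shared among them is not known from the files. Clustered protocadherins are adhesion genes whose starts are chosen through CTCF and cohesin. Of 47, 11 had a start peak at both times, or 23.4% against 7.66% of all protein-coding genes. At 4 h only there were 3, or 6.38% against 0.544%, and at 24 h only 0. The 3 were PCDHGA1 with a fold of 6.93, PCDHGA10 with 5.92 and PCDHGB2 with 4.87, neighbours in 1 cluster. Over gene bodies with 10 kb on either side, 26 protocadherins had a peak at both times and 0 at 1 time only. Those bodies still held one-time peaks, with 28 of 162 peaks only at 4 h and 41 of 175 only at 24 h. Neighbouring bodies can share a peak, so the genes are not separate observations and a peak may be counted more than once. Among HOX genes, the body-axis regulators, 1 of 20 had a start peak at 1 time only, HOXA3 at 4 h with a fold of 4.15. Cohesin and its regulators had 5 of 17 starts with a peak at both times, or 29.4% against the same 7.66%, and 0 at 1 time only. Cell cycle and p53 pathway genes had 2 of 31 at both times and 0 at 1 time only, and the histone genes of chromosome 6 had 1 of 50 and 0.

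The sites that were strongest at both times lay away from gene starts. The first lay at chr3:23998576-23999616, 17959 bp from NR1D2, a nuclear receptor of the circadian clock, with a fold of 165 in the 4 h list and 146 in the 24 h list. The next lay at chr7:94288553-94289712, 105183 bp from COL1A2, a type I collagen gene, with 141 and 190. The last lay at chr10:58064818-58065992, 125525 bp from IPMK, an inositol phosphate kinase gene, with 137 and 130. All 3 overlapped peaks of CTCF, WAPL, STAG1, STAG2, PDS5A and the other 4 RAD21 lists.

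The 5 strongest peaks only at 4 h all lay outside genes and overlapped CTCF and STAG2. At chr4:145216251-145217248, 35662 bp from the deubiquitinase gene OTUD4, the fold was 100 in the 4 h list, 59.3 in the DMSO list of clone A2 and 74.4 in the clone D7 list at 24 h. The 24 h list of clone A2, the DMSO and 4 h lists of clone D7 and the STAG1 and PDS5A lists held no peak there. At chr12:22855801-22856924, 165136 bp from ETNK1, an ethanolamine kinase gene, the fold was 99.4 at 4 h and 49.0 in DMSO, with 5.84, 6.76 and 64.5 in the DMSO, 4 h and 24 h lists of clone D7. Neither site had a peak in the 24 h list of clone A2, the STAG1 list or the PDS5A list. The others lay at chr4:162497371-162498245, 333371 bp from FSTL5, with a fold of 80.7, at chr4:68498023-68499132, 419 bp from the serine protease gene TMPRSS11E, with 80.4, and at chr4:114386321-114387403, 210999 bp from UGT8, a galactolipid synthesis gene, with 79.0. All 3 were present in DMSO in clone A2 and at 24 h in clone D7, and PDS5A had no peak at any of them.

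The 5 strongest peaks only at 24 h all overlapped CTCF. They lay at chr11:130666481-130667268, 189836 bp from the metalloprotease gene ADAMTS15, with a fold of 25.2, and at chrX:13254227-13254952, 63695 bp from ATXN3L, a deubiquitinase gene, with 22.7. Both of these were present in the other 4 RAD21 lists, in DMSO in clone A2 with 15.5 and 13.8, and overlapped STAG1. The next lay at chr6:26420341-26421241, 5133 bp from the butyrophilin gene BTN3A1, with 20.6, at chr11:17972863-17973604 inside SERGEF, with 20.4, and at chr3:25904136-25904799, 109605 bp from OXSM, a mitochondrial fatty acid synthesis gene, with 19.9. All 5 were in the DMSO list of clone A2 and in the clone D7 lists at 4 h and at 24 h. OXSM alone had no peak in the DMSO list of clone D7. The BTN3A1 and SERGEF peaks were thus also in the other 4 RAD21 lists, and the SERGEF peak overlapped STAG1 as well.

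CTCF-free peaks only at 24 h were weaker: 26.8% of the 2388 reached a −log10 q of 10, against 56.6% of all peaks only at 24 h. The 5 strongest lay at chr12:78571892-78572501, 291481 bp from the synaptic vesicle gene SYT1, with a fold of 15.2, at chr10:126376841-126377574 inside the metalloprotease gene ADAM12, with 13.5, at chr1:239612542-239613155 inside CHRM3, a muscarinic receptor gene, with 12.6, at chr7:70584991-70585573 inside AUTS2, with 12.6, and at chr22:38843215-38843699 inside NPTXR, a neuronal pentraxin receptor gene, with 11.9. Those in CHRM3 and AUTS2 were found in DMSO in clone A2 and in no list of clone D7. At gene starts CRACD was the strongest, at chr4:56048702-56049370 with a fold of 11 and a summit 5 bp from the start. Its fold was 13.8 in DMSO in clone A2 and 12.1, 18.4 and 7.17 in the DMSO, 4 h and 24 h lists of clone D7, and STAG1 and PDS5A peaks overlapped it. SERPINA10, a coagulation inhibitor gene, followed with 7.40, DDX60L with 7.35, SNTB2, a syntrophin gene, with 6.45 and CBLB with 5.95. All 5 had a DMSO peak in clone A2, and SERPINA10 alone had none in any list of clone D7.

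Sites absent from the DMSO list of clone A2 reached a −log10 q of 10 less often than those in it: 34.0% against 86.7% of the peaks only at 4 h, and 42.5% against 65.2% of those only at 24 h. Among the latter the strongest lay at chr11:19658185-19658865 inside the cytoskeletal gene NAV2, with a fold of 17.8, at chr18:3635241-3635953 inside the synaptic scaffold gene DLGAP1, with 15.8, and at the SYT1 site above. All 3 were in both dTAGV-1 lists of clone D7. Among those only at 4 h the strongest lay at chr1:99326182-99326661, 16598 bp from PLPPR4, with 10.3, at chr4:144557394-144557743, 88413 bp from HHIP, an inhibitor of hedgehog ligands, with 9.84, and at chr19:56350408-56350786 inside the zinc finger gene ZSCAN5A, with 9.55. All 3 overlapped CTCF, and none lay in the DMSO or 4 h list of clone D7. In all, 2691 peaks only at 24 h and 533 only at 4 h were absent from the DMSO list, and of these 25.9% and 23.1% lay in the clone D7 list at 24 h, 38.1% and 18.6% in its 4 h list, and 28.3% and 18.95% in its DMSO list. Of all 24 h and all 4 h peaks of clone A2, the clone D7 list at 24 h held 81.9% and 88.6%. Its 4 h list held 86.8% and 83.9%, and its DMSO list 87.5% and 86.95%.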

How the data were processed

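The members, gene lists and comparisons were chosen with earlier results of these data known. Peaks were deposited by the authors as 12 narrowPeak lists without a header. The submitters' processing notes name BWA, Picard, SAMtools, bedtools, deepTools and MACS2 and the builds hg38 and mm10, with no role or version. Peak names carry 1 immunoprecipitation and 1 input library and a value of 0.01, or 0.001 for CTCF, so peaks were called per library. The lists hold, as deposited by the authors, a score (10 times the −log10 q, cut to a whole number), the fold enrichment of the summit as a ratio, and the −log10 of p and of q. Spike-in reads were not analysed here, and peak calls do not show a change in the total amount of RAD21.

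Overlaps, shares and intervals were computed with Python 3.11.15, numpy 2.4.6, pandas 2.3.3 and scipy 1.17.1, and the functions were tested on simulated data. No p-value was computed, as each group held 1 library. Summit pileup and local background were solved from fold and −log10 p by Poisson probability, with a pseudocount of 1 on pileup and background, for peaks with a −log10 p under 250; all solved to a whole pileup within 0.001. Gene starts came from the RefSeq promoter table (GRCh38.p14), which held 22132 starts of 15812 of the 19974 protein-coding genes and none on chromosome 8; shares at starts leave that chromosome out. The named peaks were the strongest of each class by fold, outside chromosome 8, with up to 4 members per gene list. Alternatives were other thresholds, overlaps, list lengths, depth and windows.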

Additional observations from a re-analysis of the deposited data

Results flagged for a closer look

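Between 4 h and 24 h, 3 measures changed in opposite directions in clone A2 and clone D7. That contrast was not tested, since each group is 1 library. The number of RAD21 peaks changed by a ratio of 1.11 in clone A2, from 25763 to 28589, and of 0.771 in clone D7, from 39059 to 30114. The share of peaks overlapping CTCF changed by −7.15 points in clone A2, from 97.9% to 90.7%, and by 12.5 points in clone D7, from 78.2% to 90.7%. The share of summits within 1 kb of a gene start changed by 2.69 points in clone A2, from 5.27% to 7.96%, and by −4.74 points in clone D7, from 15.2% to 10.5%. At 24 h the clones had the same CTCF share to 3 digits. The libraries behind these measures also differed in background pileup. Clone D7 had values of 4.05 (4 h library) and 3.07 (24 h library), and clone A2 had 3.16 and 2.83, in the same order. Whether this library difference enters the 3 measures was not tested.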

How the results depend on the processing

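The class sizes stayed within 1.5 times of 21568 shared peaks, 4195 only at 4 h and 7130 only at 24 h in all alternatives but 2. Peaks only at 24 h numbered 4039 when they had to reach a −log10 q of 10 against the whole 4 h list. A restriction to peaks at the upper 25% of CTCF sites was chosen after seeing the data. It left 12202 shared, 894 only at 4 h and 654 only at 24 h, so the order of the one-time classes turned. Fewer sites are counted there by construction. The excess of peaks only at 24 h also shrank within the range of 1.5 times. With the 24 h list cut to the length of the 4 h list, 4991 were only at 24 h and 4881 only at 4 h. With both lists held to a −log10 q of 10 or more, the counts were 4777 and 4241. The difference in CTCF overlap, only 24 h minus only 4 h, was −27.1 points and stayed negative: −24.6 with both lists held to a −log10 q of 5 or more, −14.5 with 10, −23.2 with 50% reciprocal overlap, −24.5 with summits within 200 bp, −14.8 with lists of equal length, −14.95 for one-time peaks reaching a −log10 q of 10, and −43.0 with the upper 50% of the CTCF list; the cause was not tested. Within the 24 h list the difference between one-time and shared peaks was −32.3 points, and −26.9 matched on deciles of fold. The difference at gene starts was 12.1 points and stayed positive: 8.81 with reciprocal overlap, 10.5 by summits, 9.68 at equal length, 10.4 for one-time peaks reaching a −log10 q of 10, and 13.2 within 2.5 kb. Counted over gene bodies with 10 kb on either side, 588 genes had a peak at 4 h only and 1043 at 24 h only, against 86 and 966 at starts. Scaling the 4 h pileup to the 24 h background left 4179 peaks only at 4 h. No paired analysis was possible because each group held 1 library. Depth in reads is unknown, so absence from a list means only that no peak was called.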
